A study of Mus musculus with 6 samples.

Results

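The genes of RNA polymerase I and of ribosome assembly, 40 in all, were followed through the liver cells of wild-type and SIRT7-/- mice. The list was drawn up by gene name, from nucleolar factors acting at or after the transcription of ribosomal DNA, with earlier results of these data known. All 40 were among the 16623 genes of the table. They hold 7 genes of RNA polymerase I and its initiation factors, 4 nucleolar scaffold and chaperone genes, 3 and 4 genes of the box C/D and box H/ACA small nucleolar ribonucleoproteins (snoRNPs), and 10 and 12 processing factors of the small and the large ribosomal subunit. Livers came from 3 wild-type mice and 3 mice without SIRT7, a histone deacetylase, all 5 to 6 months old, with 1 library per mouse into which 3000 hepatocytes and 3000 nonparenchymal cells were mixed. The study uses SIRT7-/- mice as a model that acquires steatohepatitis spontaneously on chow. They lack SIRT7 in every cell type, and neither strain nor sex of these animals is given in the sources used here.

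Sirt7 itself, on chromosome 11 from 120618372 to 120625240 (GRCm38, minus strand), had a mean of 0.718, 0.512 and 0.546 counts per 10000 (CP10K) over all cells of wild-type mice 1, 2 and 3 and of 0.100, 0.0814 and 0.139 CP10K in SIRT7-/- mice 1, 2 and 3. Every SIRT7-/- library lay below every wild-type library (p = 0.1 in a two-sided exact permutation test, which cannot go lower with 3 against 3). Unique molecular identifiers (UMIs), which tag single RNA molecules, numbered from 2511947 to 11069411 per library, the most in SIRT7-/- mouse 1, over 11610 cells in all. A set of 13 barcode sequences occurred in more than 1 library. A doublet caller marked 46 cells (0.396%), too few to have worked, so doublets were not removed. The table names no cell types. Clusters were therefore named from marker genes with "-like" added, and none of the 40 genes was among the 1000 variable genes that set the clusters. Dendritic-like cells were led by Prss34 and Mcpt8, genes known from basophils, beside their own markers.

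Ribosome production starts in the nucleolus, where RNA polymerase I copies the ribosomal DNA repeats into a long precursor RNA. UBTF opens the repeats and RRN3 brings the polymerase to the promoter. Box C/D snoRNPs methylate the precursor and box H/ACA snoRNPs turn uridines into pseudouridines, while assembly factors cut and fold it into the small and the large subunit. Nucleolin (NCL), nucleophosmin (NPM1) and DDX21 hold this work together. SIRT7 is known as a nucleolar deacetylase that associates with RNA polymerase I, and growing or dividing cells make more ribosomes than resting cells do.

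The 40 genes were low in all 8 cell classes that could be compared. A level is the mean CP10K of a mouse's cells in that class. Reads were taken from the 3' end with 1 count per molecule, so that a level does not grow with transcript length. Summed over the 40 genes and averaged over mice, the level was 32.4 CP10K in T-like, 27.3 in B-like, 27.2 in dendritic-like, then 22.3 and 22.1 in hepatocyte 1-like and macrophage-like, 20.4 in endothelial-like, 14.8 in hepatocyte 2-like and 10.8 CP10K in plasma B-like cells. The sums per mouse ran from 27.5 to 45.4 CP10K in T-like and from 7.998 to 13.2 CP10K in plasma B-like cells and did not overlap with each other. Those of B-like (22.0 to 31.5), dendritic-like (24.2 to 28.4), hepatocyte 1-like (17.3 to 25.7), macrophage-like (19.8 to 23.8) and endothelial-like cells (18.7 to 22.1 CP10K) overlapped with their neighbors in this order, while hepatocyte 2-like cells (13.3 to 17.4 CP10K) lay just above plasma B-like cells. In plasma B-like cells, which secrete immunoglobulin, 25 of the 40 genes had their lowest class mean. The mean log2 level (CP10K plus 0.05) of all genes tested was lowest there too. It was -2.27 to -1.87 per mouse, against -1.78 to -1.11 in the other classes. Relative to it, the mean of the 40 genes was -0.49 to -0.20 in plasma B-like and -0.65 to -0.09 in hepatocyte 2-like cells.

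Nucleophosmin gave from 5.89% of the sum in hepatocyte 2-like to 22.8% in T-like cells and was the highest of the 40 genes in T-like, dendritic-like, macrophage-like and endothelial-like cells. Its class mean ranged 8.49-fold, from 0.870 CP10K in hepatocyte 2-like to 7.39 CP10K in T-like cells. Nop10, the smallest protein of the H/ACA particle, was the highest in the other 4 classes, with 5.09 CP10K in hepatocyte 1-like, 4.82 in B-like, 1.88 in plasma B-like and 1.54 CP10K in hepatocyte 2-like cells, and had 4.69 CP10K in T-like cells. Polr1d, a subunit that RNA polymerases I and III share, ranged from 0.956 CP10K in hepatocyte 2-like to 2.88 CP10K in dendritic-like cells. The large subunits that form the catalytic center of RNA polymerase I were far lower in level. Polr1a lay between 0.0681 CP10K in plasma B-like and 0.682 CP10K in B-like cells, and Polr1b between 0.0349 CP10K in dendritic-like and 0.341 CP10K in B-like cells. Hepatocyte 2-like cells were named after the group that the study calls periportal, and 2 of their 7 markers were among the cluster's 10 leading genes. In these cells 6 genes had their highest class mean, while 6 others had their lowest. Among the highest were Gnl3 (0.685 CP10K), Noc2l (0.585 CP10K), Heatr1 (0.272 CP10K) and Rrn3 (0.352 CP10K). Class levels are a description, since the classes are clusters of the same cells.

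**Figure D1:**
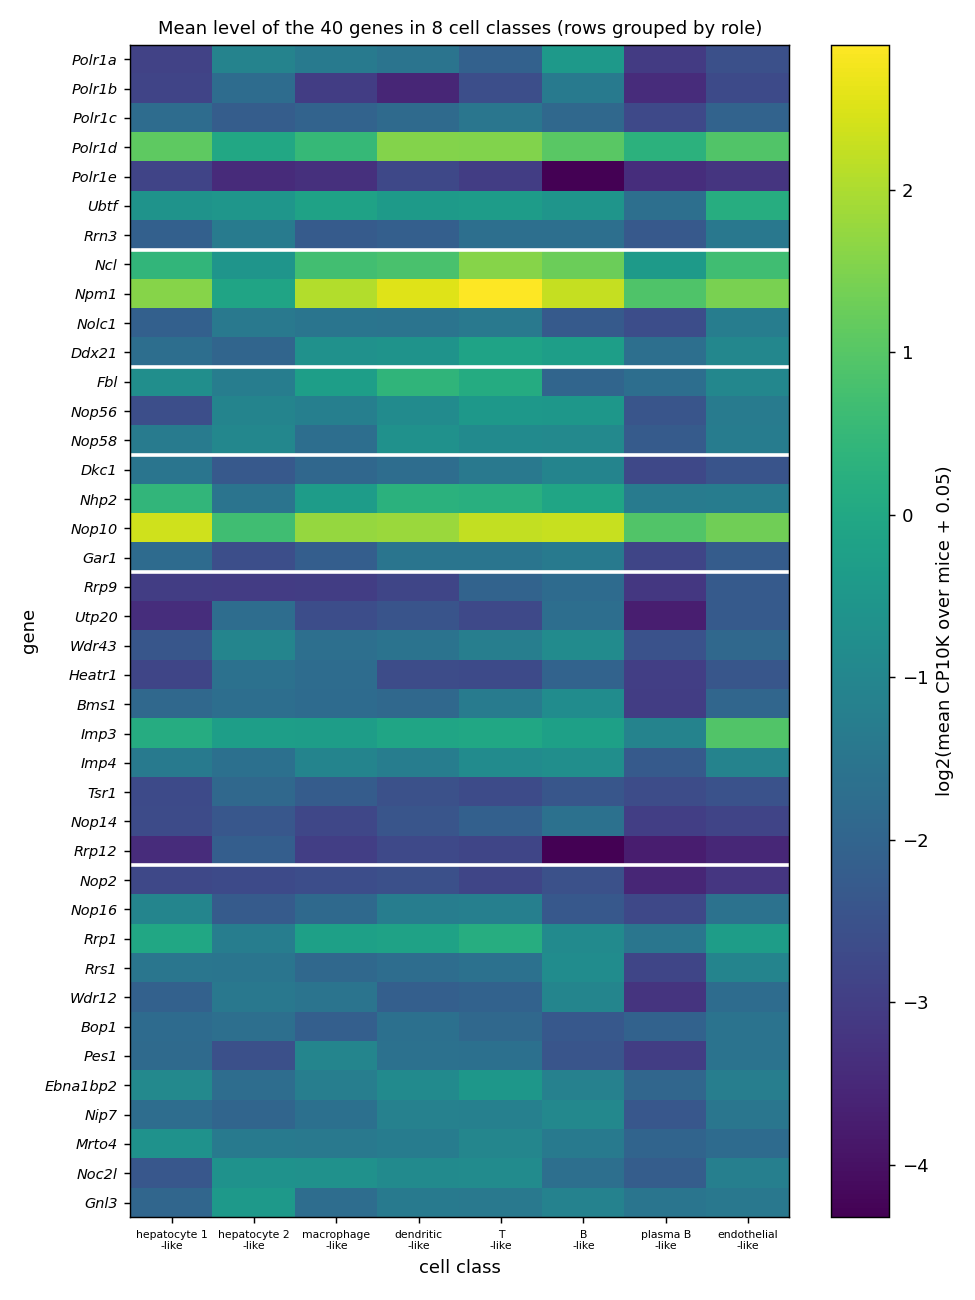
Mean level of each of the 40 genes (rows, grouped by role and separated by white lines) in the 8 cell classes (columns), as log2 of the mean CP10K over mice plus 0.05. Npm1 and Nop10 are the 2 highest genes in 7 of the 8 classes, Polr1d lies between them in hepatocyte 2-like cells, and the plasma B-like column is the darkest, with 25 of 40 genes at their lowest class mean. The mean log2 level of all genes tested was lowest in plasma B-like cells too.

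Sequences just before the transcription start are shown for genes that the comparison of cycling cells below turns on, and for Rrn3. RefSeq windows on GRCm38.p6 from 250 bases before to 50 bases after the start were at hand for 35 of the 40 genes, without Npm1, Fbl, Rrp12, Rrs1 and Bop1. The E-box CACGTG, the best known binding sequence of MYC, was in the window of 7 of the 35 genes (20%: Imp4, Nop2, Pes1, Rrn3, Tsr1, Utp20 and Wdr43) and in 7.15% of all 32851 windows of the table. It is its own reverse complement. The GC box GGGCGG, read on both strands, was in the windows of 23 of the 35 genes (65.7%) and in 35.7% of all windows. Some genes have several windows, and by gene the shares were 8.09% and 38.2% of 27025 genes. These counts describe letters and not binding. Of the sequences below, each the 250 bases before the start read 5' to 3' on the strand of the gene, those of Ncl, Nop56 and Nop58 have the GC box in capitals, that of Nop10 has no match and no capitals, and that of Rrn3 has the E-box in capitals.
Ncl (chr1:86359456-86359705, minus strand): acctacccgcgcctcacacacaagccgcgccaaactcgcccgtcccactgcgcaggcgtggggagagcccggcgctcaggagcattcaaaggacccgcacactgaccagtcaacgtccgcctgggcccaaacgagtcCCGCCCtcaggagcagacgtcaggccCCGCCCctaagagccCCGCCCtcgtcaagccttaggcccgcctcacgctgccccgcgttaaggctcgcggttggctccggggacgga
Nop56 (chr2:130274162-130274411, plus strand): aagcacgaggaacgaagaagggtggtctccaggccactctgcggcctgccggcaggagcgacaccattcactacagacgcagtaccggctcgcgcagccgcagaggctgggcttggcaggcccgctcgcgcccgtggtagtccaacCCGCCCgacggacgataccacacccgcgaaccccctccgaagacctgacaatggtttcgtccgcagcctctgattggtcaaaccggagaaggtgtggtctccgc
Nop58 (chr1:59684756-59685005, plus strand): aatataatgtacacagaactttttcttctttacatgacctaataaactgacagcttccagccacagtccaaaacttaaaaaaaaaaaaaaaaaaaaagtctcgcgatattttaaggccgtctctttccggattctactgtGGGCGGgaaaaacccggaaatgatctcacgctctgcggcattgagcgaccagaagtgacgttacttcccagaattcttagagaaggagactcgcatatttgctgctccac
Nop10 (chr2:112261676-112261925, plus strand): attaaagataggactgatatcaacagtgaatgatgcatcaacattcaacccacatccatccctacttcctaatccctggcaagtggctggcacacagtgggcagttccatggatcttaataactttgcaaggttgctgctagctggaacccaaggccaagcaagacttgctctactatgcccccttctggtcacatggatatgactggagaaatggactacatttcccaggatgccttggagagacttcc
Rrn3 (chr16:13780449-13780698, plus strand): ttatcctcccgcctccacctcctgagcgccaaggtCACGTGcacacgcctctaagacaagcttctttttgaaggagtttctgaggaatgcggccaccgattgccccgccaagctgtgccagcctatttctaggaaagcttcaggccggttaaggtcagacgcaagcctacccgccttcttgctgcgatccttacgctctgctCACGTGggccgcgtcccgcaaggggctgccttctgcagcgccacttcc
Ncl held 3 GC boxes, Nop56 and Nop58 held 1 each and Nop10 held 0. Rrn3 held 2 E-boxes in these 250 bases.

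The question of the genotype comparison was whether these nucleolar genes differ in SIRT7-/- liver cells. With limma (log2 of the mean CP10K plus 0.05, two-sided, Benjamini-Hochberg adjusted p under 0.05 among all genes tested in the class), 0 of the 40 genes passed in any of the 8 classes. In hepatocyte 1-like cells 0 of 38 members tested were called, where 0.491% of all 8551 genes were. In hepatocyte 2-like cells it was 0 of 39 (0.233% of 10307 genes), in macrophage-like cells 0 of 40 (0.201% of 9942) and in dendritic-like cells 0 of 39 (0.0308% of 9739). Neither did any member pass among the 40 tested in T-like cells (0.16% of 9993 genes called), 38 in B-like cells (0.0215% of 9310), 35 in plasma B-like cells (0.078% of 7692) and 39 in endothelial-like cells (0.206% of 10658). Calls were thus rare among all genes too. The members not tested had a mean under 0.05 CP10K, among them Utp20 and Rrp12 in hepatocyte 1-like cells and Polr1b, Polr1e, Utp20, Rrp12 and Nop2 in plasma B-like cells.

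At an unadjusted p under 0.05, 4 members were higher in SIRT7-/- hepatocyte 1-like cells (3.85% of all genes) and 0 lower (6.84%). The numbers higher and lower were 2 (7.55%) and 0 (2.77%) in hepatocyte 2-like, 1 (3.88%) and 0 (6.71%) in macrophage-like and 3 (2.8%) and 0 (4.41%) in T-like cells. They were 2 (4.75%) and 0 (1.95%) in plasma B-like and 0 (2.56%) and 1 (4.62%) in endothelial-like cells. In dendritic-like (2.0% and 3.95%) and B-like cells (1.86% and 1.88%) they were 0 and 0. Weighted by precision on summed UMIs (limma voom), 1 of 38 members was called in hepatocyte 1-like cells, where 514 of 8551 genes were. In each of the other classes 0 members were called with voom, which called 94 genes in hepatocyte 2-like cells.

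The direction was on the side of SIRT7-/- mice in hepatocyte 1-like cells. There the score of the 40 genes, the mean of their log2 levels minus the same mean over all genes tested, was -0.31, -0.31 and -0.27 in wild-type mice 1, 2 and 3 and 0.07, -0.05 and -0.02 in SIRT7-/- mice 1, 2 and 3. All 3 SIRT7-/- mice lay above all 3 wild-type mice, with a mean difference of 0.30 on the log2 scale and within-group SDs of 0.03 and 0.06 (n = 3 each). Before all genes were subtracted, the members' mean overlapped, at -1.815 to -1.661 in wild-type and -1.676 to -1.513 in SIRT7-/- mice. The mean of all genes was -1.502 to -1.35 in wild-type and -1.66 to -1.475 in SIRT7-/- mice. The summed level was 17.3, 17.6 and 22.7 CP10K in the wild-type and 25.3, 25.7 and 25.2 CP10K in the SIRT7-/- mice. Without Npm1 the sum was 15.3, 15.9 and 20.7 CP10K against 21.5, 21.5 and 21.3 CP10K, and again did not overlap. The median log2 fold change of the 38 members tested was 0.25, and 0.34 relative to the median of all genes, which was -0.09. Over the alternatives this relative median ran from 0.02, for means of the logged values of single cells, to 0.44. For 10 of 38 members all SIRT7-/- mice were above all wild-type mice (7.77% of all genes), and for 0 all were below (9.2%). The median share of mitochondrial UMIs (1.34% to 3.64% in wild-type and 1.03% to 2.91% in SIRT7-/- mice) and the summed level of 24 hepatocyte markers overlapped between the genotypes (892 to 1246 against 916 to 1169 CP10K), and so did the summed levels of the marker lists of macrophages (0.776 to 2.98 and 1.13 to 4.46 CP10K) and T cells (0.0382 to 2.17 and 0.0851 to 1.07 CP10K). The 7 markers of hepatocyte 2 were lower in every SIRT7-/- mouse (11.4 to 11.8 against 15.6 to 30.7 CP10K), and their part in the result was not tested.

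**Figure D2:**
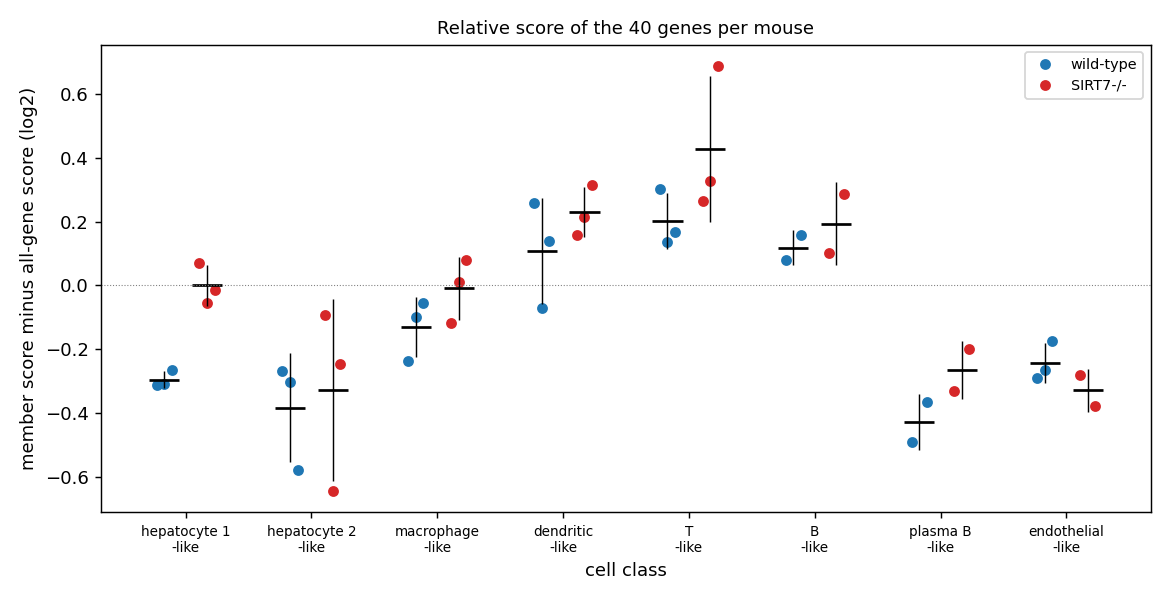
Score of the 40 genes per mouse (points) in each cell class, as the mean log2 level of the members minus that of all genes tested, with bars for the mean and lines for the SD of each genotype. In hepatocyte 1-like cells the 3 SIRT7-/- mice (-0.05 to 0.07) sit above the 3 wild-type mice (-0.31 to -0.27), and in 6 of the other 7 classes the genotypes overlap.

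Among the other classes, the genotypes were separated by both the score and the summed level in plasma B-like cells alone, and by the summed level in T-like cells too. The summed level in T-like cells was 27.5, 28.0 and 30.1 CP10K in wild-type mice 1, 2 and 3, against 30.6, 33.1 and 45.4 CP10K for SIRT7-/-. Without Npm1 it was 21.9, 22.6 and 24.8 CP10K against 23.3, 25.4 and 32.2 CP10K, and the genotypes overlapped. Plasma B-like cells stayed apart without Npm1 (6.855 and 8.37 against 9.89 and 10.6 CP10K). In plasma B-like cells all 40 genes summed to 7.998 and 9.90 CP10K for wild-type mice 2 and 3, against 11.9 and 13.2 CP10K. The sums overlapped between the genotypes in hepatocyte 2-like (means of 13.7 and 15.8 CP10K, wild-type first), macrophage-like (21.5 and 22.6), dendritic-like (26.4 and 28.0), B-like (26.7 and 27.9) and endothelial-like cells (19.99 and 21.1 CP10K). By single members, all SIRT7-/- mice were above all wild-type mice for 5 of 40 members in T-like cells (5.19% of all genes) and below for 0 (6.51%). These counts were 6 (12.7%) and 1 (4.3%) in hepatocyte 2-like, 4 (7.22%) and 2 (9.81%) in macrophage-like and 2 (3.92%) and 4 (6.82%) in dendritic-like cells. With fewer mice they were 7 (15.8%) and 3 (13.0%) in B-like, 9 (26.1%) and 1 (10.6%) in plasma B-like and 3 (9.58%) and 4 (12.7%) in endothelial-like cells. The relative scores of plasma B-like cells were -0.49 and -0.37 in wild-type mice 2 and 3 and -0.33 and -0.20 in SIRT7-/- mice 1 and 2. In T-like cells they were 0.30, 0.14 and 0.17 in wild-type and 0.26, 0.33 and 0.69 in SIRT7-/- mice 1, 2 and 3, the last of which had 31 cells. The relative median was 0.15 in T-like, 0.16 in dendritic-like, 0.25 in plasma B-like, 0.08 in macrophage-like, 0.08 in endothelial-like, 0.01 in B-like and -0.05 in hepatocyte 2-like cells. The median of all genes lay at 0.19 in hepatocyte 2-like and 0.23 in plasma B-like cells, so that the members' own medians of 0.15 and 0.48 there are read against it. With 31 and 20 cells, SIRT7-/- mouse 3 in T-like and wild-type mouse 2 in plasma B-like cells were among the thinnest libraries. Without them the relative medians were 0.07 and 0.14. In plasma B-like cells the S100a8/S100a9 cell markers summed to 13.7 to 22.4 CP10K in SIRT7-/- and 0.0391 to 0.164 CP10K in wild-type mice. Those of T cells summed to 5.555 to 6.25 against 0.333 to 2.38 CP10K. Macrophage, B and stellate markers were higher in SIRT7-/- mice too, without overlap, while hepatocyte, dendritic and endothelial markers overlapped. The part of these markers in the result was not tested.

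**Figure D3:**
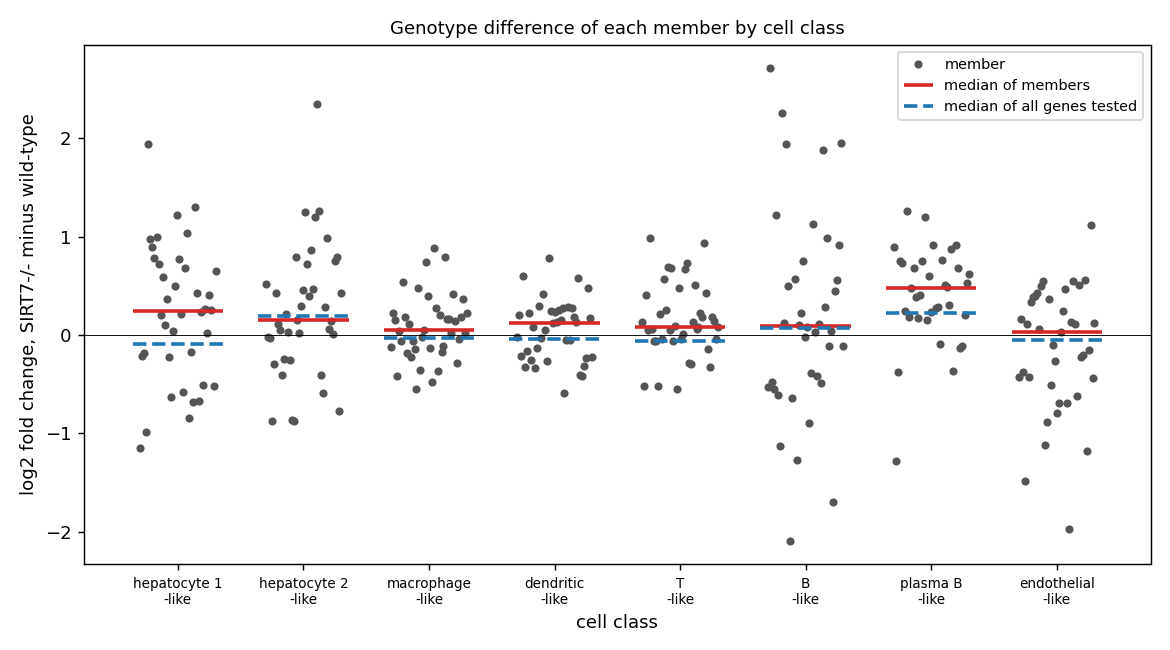
Log2 fold change (SIRT7-/- minus wild-type) of each member tested (points) in each cell class, with the median of the members (red line) and of all genes tested (dashed blue line). The medians lie 0.34 apart in hepatocyte 1-like cells and between -0.05 and 0.25 apart in the other classes, while single members spread on both sides of 0.

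Nucleophosmin, a histone and ribosomal protein chaperone that shuttles between nucleolus and cytoplasm, was the member with the lowest adjusted p in hepatocyte 1-like cells. Its level there was 2.004, 1.74 and 2.01 CP10K in wild-type mice and 3.85, 4.199 and 3.87 CP10K in SIRT7-/- mice. The 3 values of each genotype lay close together and far from those of the other genotype, at 16 to 282 UMIs per mouse. The log2 fold change was 1.03 (SE 0.26, limma adjusted p = 0.0722), higher in 3 of 3 SIRT7-/- mice, and thus missed the threshold. It was 1.03 without the cycling cells (adjusted p = 0.0791) and 1.03 with voom on summed UMIs (adjusted p = 0.0094), and over all alternatives the adjusted p ran from 0.0094 to 0.436. Voom called 514 genes in this class, in place of 42. Npm1 lies on chromosome 11 from 33152287 to 33163206, 87.5 Mb from Sirt7 (GRCm38). Processed copies of Npm1 exist in the genome, and reads shared with them may have been lost or split.

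Npm1 had the higher mean in SIRT7-/- mice in 7 of the 8 classes, and in 5 of them the mice did not overlap. In B-like cells the means were 4.72 CP10K for wild-type and 4.68 CP10K for SIRT7-/-. The classes come from the same 6 mice and are not independent. In T-like cells its level was 5.53, 5.48 and 5.24 CP10K in wild-type mice and 7.23, 7.65 and 13.2 CP10K in SIRT7-/- mice. Every SIRT7-/- mouse was above every wild-type mouse, and SIRT7-/- mouse 3, with 31 cells, stood far above the rest. The log2 fold change was 0.73 (SE 0.23, limma adjusted p = 0.432). In T-like cells the share of cycling cells was also higher in every SIRT7-/- mouse (9.68% to 34.2%) than in every wild-type mouse (1.48% to 6.85%), and without cycling cells the log2 fold change of Npm1 was 0.60. The 24 hepatocyte markers summed to 209 to 378 CP10K in the T-like cells of wild-type mice and to 70.4 to 286 CP10K in those of SIRT7-/- mice, where their part in the result was not tested. Dendritic-like cells had 5.195, 4.77 and 5.803 CP10K in wild-type mice and 6.81, 5.88 and 6.35 CP10K in SIRT7-/- mice. There the lowest SIRT7-/- mouse was just above the highest wild-type mouse, with a log2 fold change of 0.27 and of 0.14 without cycling cells. In macrophage-like cells the level was 3.36, 3.88 and 3.99 CP10K in wild-type mice and 3.92, 5.51 and 4.26 CP10K in SIRT7-/- mice, and the genotypes overlapped. Hepatocyte 2-like cells had 0.913, 0.668 and 0.3005 CP10K in wild-type mice and 1.09, 1.41 and 0.836 CP10K in SIRT7-/- mice, with SIRT7-/- mouse 3 inside the wild-type range and a log2 fold change of 0.87 (SE 0.44, limma adjusted p = 0.51).

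A mouse entered a class with at least 20 cells, so that B-like, plasma B-like and endothelial-like cells were compared in fewer mice. Plasma B-like cells had 1.14 and 1.53 CP10K in wild-type mice 2 and 3 and 2.01 and 2.57 CP10K in SIRT7-/- mice 1 and 2, without overlap. In endothelial-like cells it was 2.23, 2.27 and 2.37 CP10K in wild-type mice and 3.26 and 3.11 CP10K in SIRT7-/- mice 1 and 2, again without overlap between 3 and 2 mice. B-like cells had 3.56 and 5.87 CP10K in wild-type mice 1 and 3 and 4.48 and 4.88 CP10K in SIRT7-/- mice 1 and 2, where the SIRT7-/- mice fell between the wild-type mice and the log2 fold change of 0.03 turned to -0.04 with voom and to -0.33 without wild-type mouse 1. The limma adjusted p in these 3 classes was 0.735, 0.79 and 0.999.

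Nucleolin, the major RNA-binding protein of the nucleolus, followed no such pattern. In hepatocyte 1-like cells its level was 0.801, 1.09 and 1.99 CP10K in wild-type mice and 1.25, 1.34 and 1.32 CP10K in SIRT7-/- mice, with wild-type mouse 3 highest and the genotypes overlapping. Hepatocyte 2-like cells had 0.636, 0.837 and 0.584 CP10K in wild-type mice and 0.742, 0.503 and 0.467 CP10K in SIRT7-/- mice, which overlapped too. In T-like cells it was 2.13, 2.905 and 2.78 CP10K in wild-type mice and 2.06, 3.12 and 4.58 CP10K in SIRT7-/- mice. The genotypes overlapped there, again with SIRT7-/- mouse 3 highest. Macrophage-like cells had 1.61, 1.81 and 1.56 CP10K in wild-type mice and 1.33, 1.698 and 1.49 CP10K in SIRT7-/- mice and dendritic-like cells had 1.77, 1.64 and 1.803 CP10K in wild-type mice and 1.57, 1.71 and 1.82 CP10K in SIRT7-/- mice, both with overlap. In plasma B-like cells the level was 0.498 and 0.726 CP10K in wild-type mice 2 and 3 and 0.837 and 0.793 CP10K in SIRT7-/- mice 1 and 2, and in endothelial-like cells 1.35, 1.11 and 1.43 CP10K in wild-type mice and 1.57 and 2.32 CP10K in SIRT7-/- mice 1 and 2. In both the SIRT7-/- mice were the higher ones. B-like cells had 2.51 and 3.3 CP10K in wild-type mice 1 and 3 and 1.65 and 2.04 CP10K in SIRT7-/- mice 1 and 2, with the SIRT7-/- mice the lower ones. Its log2 fold change was 0.55 in endothelial-like cells (limma adjusted p = 0.769) and 0.41 in plasma B-like cells (limma adjusted p = 0.863).

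**Figure D4:**
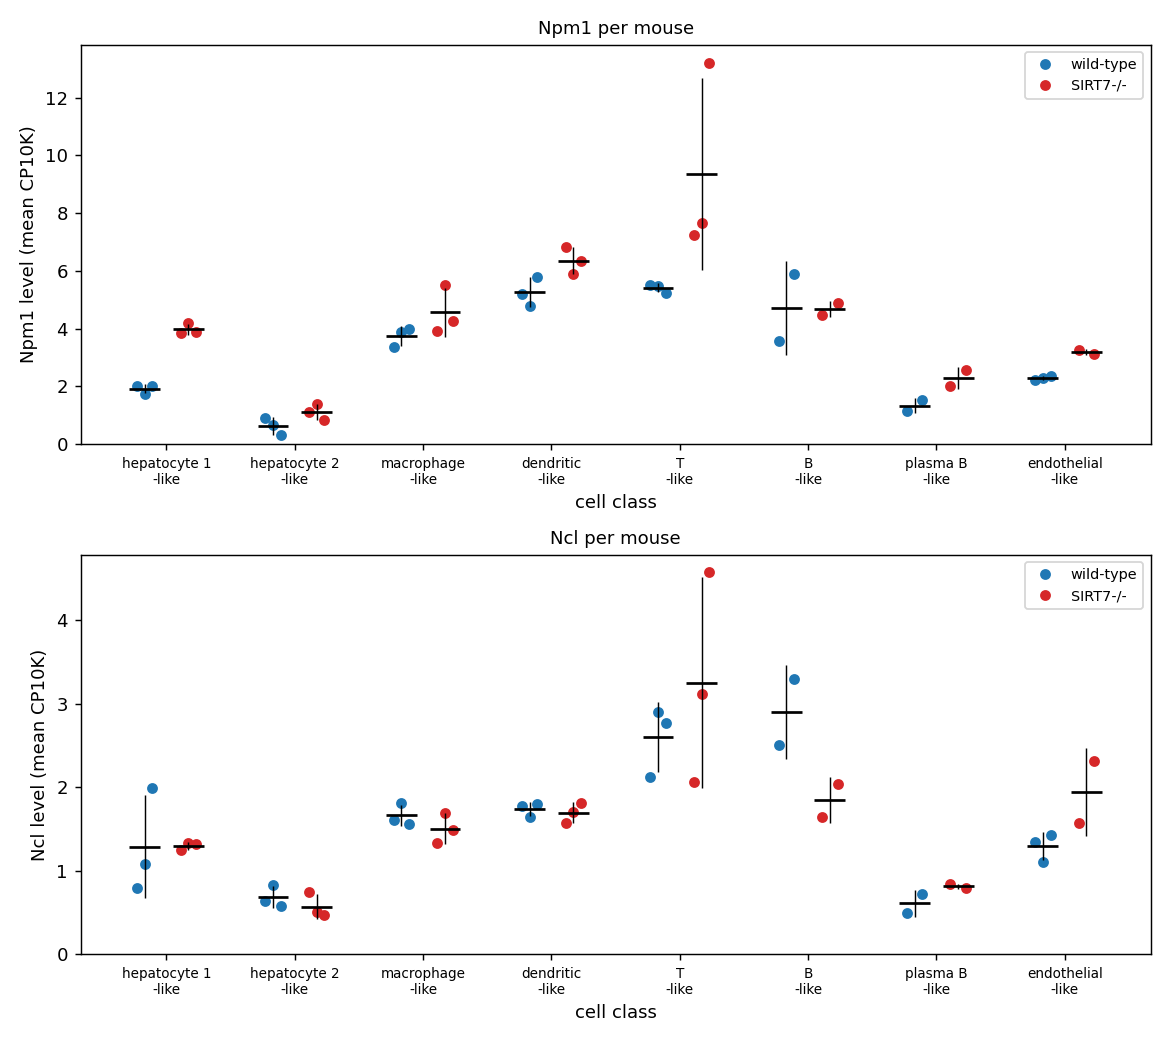
Levels of Npm1 (top) and Ncl (bottom) in mean CP10K per mouse (points), with bars for the mean and lines for the SD of each genotype, in the 8 cell classes. Npm1 is higher in every SIRT7-/- mouse in 5 classes, hepatocyte 1-like cells (3.85 to 4.20 against 1.74 to 2.01 CP10K) among them, while Ncl overlaps in 5 classes.

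Of RNA polymerase I and its initiation factors, 6 of the 7 genes were tested in hepatocyte 2-like cells, and 4, Polr1a, Polr1b, Polr1c and Ubtf, had every SIRT7-/- mouse above every wild-type mouse (12.7% of all genes). Among all 39 members tested there the number was 6, near that share. Polr1a, the largest subunit, had 0.235, 0.436 and 0.0985 CP10K in wild-type mice and 0.526, 0.673 and 0.549 CP10K in SIRT7-/- mice. All SIRT7-/- mice were above all wild-type mice, and the log2 fold change was 1.20 (SE 0.52, limma adjusted p = 0.428). These values rested on 1 UMI in wild-type mouse 3 and 4 UMIs in SIRT7-/- mouse 2. Polr1b, the second largest subunit, had 0.0333, 0.126 and 0 CP10K in wild-type mice and 0.464, 0.591 and 0.245 CP10K in SIRT7-/- mice. The values again did not overlap but rested on 0 to 4 UMIs in each wild-type mouse and 3 to 28 in each SIRT7-/- mouse. A count of 0 in wild-type mouse 3 allows up to 0.379 CP10K (3 UMIs, counting error only). The log2 fold change of Polr1b was 2.35 (SE 0.70, limma adjusted p = 0.224; 0.0613 to 0.511 over the alternatives). Polr1c, a subunit shared with RNA polymerase III, had 0.153, 0.124 and 0 CP10K in wild-type mice and 0.229, 0.2901 and 0.207 CP10K in SIRT7-/- mice and a log2 fold change of 1.26 (SE 0.72, limma adjusted p = 0.568). Its count of 0 in wild-type mouse 3 also allows up to 0.379 CP10K, above every SIRT7-/- value, and SIRT7-/- mouse 2 had 2 UMIs. Ubtf had 0.343, 0.559 and 0.497 CP10K in wild-type mice and 0.807, 0.731 and 0.883 CP10K in SIRT7-/- mice, with the SIRT7-/- mice higher in 3 of 3, and Rrn3 had 0.245, 0.249 and 0.847 CP10K in wild-type mice and 0.344, 0.111 and 0.315 CP10K in SIRT7-/- mice, with overlap. In these cells the 13 markers of hepatocyte 1 were lower in every SIRT7-/- mouse (217 to 262 against 269 to 589 CP10K), and their part in the result was not tested.

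In hepatocyte 1-like cells Polr1a, Polr1b, Ubtf and Rrn3 overlapped between the genotypes, while Polr1c and Polr1d did not. Polr1a had 0.0516, 0.0459 and 0.204 CP10K in wild-type mice and 0.0818, 0.0683 and 0.0606 CP10K in SIRT7-/- mice, at 1 to 7 UMIs per mouse. Polr1b had 0.0967, 0.107 and 0.161 CP10K in wild-type mice and 0.0525, 0.102 and 0.0251 CP10K in SIRT7-/- mice. Ubtf had 0.446, 0.707 and 0.469 CP10K in wild-type mice and 0.479, 0.7696 and 0.714 CP10K in SIRT7-/- mice, and Rrn3 had 0.177, 0.167 and 0.141 CP10K in wild-type mice and 0.186, 0.2595 and 0.162 CP10K in SIRT7-/- mice. Polr1c had 0.213, 0.223 and 0 CP10K in wild-type mice and 0.305, 0.231 and 0.484 CP10K in SIRT7-/- mice, higher in every SIRT7-/- mouse, with a log2 fold change of 1.297 (SE 0.64, limma adjusted p = 0.476). That fold change leans on a count of 0 in wild-type mouse 3, which allows up to 0.391 CP10K. This limit is above the values of SIRT7-/- mice 1 and 2. The difference of the genotype effect between both hepatocyte classes was tested within mice, where 0 of 37 members and 0.0% of 8242 genes were called by limma. At an unadjusted p under 0.05, 3 members were on the side of hepatocyte 2-like cells (8.8% of all genes) and 2 on that of hepatocyte 1-like cells (3.15%). The largest difference was that of Polr1b, 3.03 on the log2 scale (SE 0.69, adjusted p = 0.369), followed by Ebna1bp2 with -2.24 (SE 0.96, adjusted p = 0.41). The members' median difference was -0.22 and that of all genes 0.27.

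In macrophage-like cells Polr1d had 0.932, 0.747 and 1.36 CP10K in wild-type mice and 2.04, 1.85 and 1.39 CP10K in SIRT7-/- mice. Every SIRT7-/- mouse was above every wild-type mouse, the lowest by little, and the log2 fold change was 0.79 (SE 0.26, limma adjusted p = 0.288). Plasma B-like cells had 0.688 and 0.981 CP10K in wild-type mice 2 and 3 and 1.62 and 1.48 CP10K in SIRT7-/- mice 1 and 2 of Polr1d, with the SIRT7-/- mice higher and a log2 fold change of 0.87 (SE 0.37, limma adjusted p = 0.725). In hepatocyte 2-like cells the order was the other way, with 1.057, 0.8905 and 1.34 CP10K in wild-type mice and 0.721, 1.02 and 0.7103 CP10K in SIRT7-/- mice, and the genotypes overlapped. Polr1a in macrophage-like cells was 0.4199, 0.139 and 0.396 CP10K in wild-type mice and 0.277, 0.322 and 0.4498 CP10K in SIRT7-/- mice, Polr1b 0.0324, 0.146 and 0.07599 CP10K in wild-type mice and 0.0622, 0.0352 and 0.0988 CP10K in SIRT7-/- mice, Ubtf 0.469, 1.11 and 0.833 CP10K in wild-type mice and 0.853, 0.736 and 1.05 CP10K in SIRT7-/- mice and Rrn3 0.146, 0.153 and 0.1498 CP10K in wild-type mice and 0.192, 0.166 and 0.164 CP10K in SIRT7-/- mice. Rrn3 was the one of these 4 with every SIRT7-/- mouse above every wild-type mouse, with a narrow gap.

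Polr1a, Polr1b, Ubtf and Rrn3 were followed in the lymphoid and dendritic-like classes. In dendritic-like cells Polr1a had 0.102, 0.365 and 0.5 CP10K in wild-type mice and 0.206, 0.2699 and 0.332 CP10K in SIRT7-/- mice, with overlap. Polr1b had 0, 0 and 0.0428 CP10K in wild-type mice and 0.0495, 0.0598 and 0.0572 CP10K in SIRT7-/- mice, where the SIRT7-/- mice were higher but had 2 to 6 UMIs each. A count of 0 in wild-type mouse 1 allows up to 0.115 CP10K, so that a difference was not detectable at this depth. Ubtf had 0.845, 0.759 and 0.672 CP10K in wild-type mice and 0.738, 0.779 and 0.442 CP10K in SIRT7-/- mice and Rrn3 0.165, 0.173 and 0.143 CP10K in wild-type mice and 0.117, 0.265 and 0.208 CP10K in SIRT7-/- mice, both with overlap. T-like cells had 0.121, 0.22 and 0.295 CP10K in wild-type mice and 0.2096, 0.169 and 0.102 CP10K in SIRT7-/- mice of Polr1a and 0.125, 0.0488 and 0.136 CP10K in wild-type mice and 0.0641, 0.0669 and 0.267 CP10K in SIRT7-/- mice of Polr1b. Their Ubtf was 0.598, 0.6796 and 0.759 CP10K in wild-type mice and 0.676, 1.08 and 0.6304 CP10K in SIRT7-/- mice and their Rrn3 0.267, 0.2296 and 0.219 CP10K in wild-type mice and 0.238, 0.312 and 0.311 CP10K in SIRT7-/- mice. In T-like cells the genotypes overlapped in each of the 4 genes.

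B-like cells were counted in 23 to 68 cells per mouse, where a count of 0 allows 0.338 to 0.818 CP10K. They had 0 and 1.99 CP10K in wild-type mice 1 and 3 and 0.134 and 0.603 CP10K in SIRT7-/- mice 1 and 2 of Polr1a, 0 and 1.08 CP10K in wild-type mice 1 and 3 and 0.0495 and 0.236 CP10K in SIRT7-/- mice 1 and 2 of Polr1b and 0.372 and 0 CP10K in wild-type mice 1 and 3 and 0.581 and 0.0821 CP10K in SIRT7-/- mice 1 and 2 of Rrn3, which spread too far within the wild-type mice to compare. Ubtf, at 0.424 and 0.578 CP10K in wild-type mice 1 and 3 and 0.8401 and 0.672 CP10K in SIRT7-/- mice 1 and 2, was higher in both SIRT7-/- mice. In plasma B-like cells Polr1a had 0 and 0.116 CP10K in wild-type mice 2 and 3 and 0.0772 and 0.07898 CP10K in SIRT7-/- mice 1 and 2, Polr1b 0.0339 and 0.0804 CP10K in wild-type mice 2 and 3 and 0.0395 and 0.0212 CP10K in SIRT7-/- mice 1 and 2, Ubtf 0.115 and 0.3605 CP10K in wild-type mice 2 and 3 and 0.143 and 0.416 CP10K in SIRT7-/- mice 1 and 2 and Rrn3 0.151 and 0.184 CP10K in wild-type mice 2 and 3 and 0.0609 and 0.205 CP10K in SIRT7-/- mice 1 and 2, with overlap in all of them. Endothelial-like cells had 0.0846, 0.247 and 0.242 CP10K in wild-type mice and 0.0168 and 0 CP10K in SIRT7-/- mice 1 and 2 of Polr1a. Both SIRT7-/- mice were below the 3 wild-type mice, with a log2 fold change of -1.97 (SE 0.90, limma adjusted p = 0.654), though a count of 0 in SIRT7-/- mouse 2 allows up to 0.356 CP10K. Polr1b had 0.111, 0.111 and 0.0752 CP10K in wild-type mice and 0.125 and 0.1003 CP10K in SIRT7-/- mice 1 and 2, Ubtf 0.652, 0.924 and 1.85 CP10K in wild-type mice and 0.674 and 1.28 CP10K in SIRT7-/- mice 1 and 2 and Rrn3 0.544, 0.156 and 0.0906 CP10K in wild-type mice and 0.141 and 0.658 CP10K in SIRT7-/- mice 1 and 2, all overlapping. Ubtf is the member nearest to another landmark here, 18.3 Mb from Sirt7 on chromosome 11.

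The rest of the larger differences, among members averaging 0.3 CP10K or more, came from snoRNP and processing genes. In hepatocyte 1-like cells Ebna1bp2, an assembly factor of the large subunit, had 0.3104, 0.387 and 0 CP10K in wild-type mice and 0.533, 0.844 and 0.813 CP10K in SIRT7-/- mice. The SIRT7-/- mice were all higher, with a log2 fold change of 1.94 (SE 0.71, limma adjusted p = 0.345) that leans on a count of 0 in wild-type mouse 3, which allows up to 0.391 CP10K. Fibrillarin (Fbl), the methyltransferase of the box C/D particle, had 0.387, 0.463 and 0.218 CP10K in wild-type mice and 0.557, 0.7897 and 0.846 CP10K in SIRT7-/- mice. It too was higher in every SIRT7-/- mouse, with a log2 fold change of 0.97 (SE 0.42, limma adjusted p = 0.407). Imp3, a small subunit factor, had 0.645, 0.988 and 0.714 CP10K in wild-type mice and 1.57, 1.32 and 1.08 CP10K in SIRT7-/- mice, again without overlap, with a log2 fold change of 0.73 (SE 0.34, limma adjusted p = 0.463). At the other end were Dkc1, the pseudouridine synthase, with 0.156, 0.123 and 1.09 CP10K in wild-type mice and 0.156, 0.246 and 0.03605 CP10K in SIRT7-/- mice, and Rrp1 with 0.809, 0.626 and 1.98 CP10K in wild-type mice and 0.548, 1.13 and 0.529 CP10K in SIRT7-/- mice. Wild-type mouse 3, with 54 cells, was the highest in both, and the genotypes overlapped. The third lowest was Rrs1, at 0.198, 0.291 and 0.436 CP10K in wild-type mice and 0.359, 0.227 and 0.333 CP10K in SIRT7-/- mice, whose log2 fold change was 0.02.

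In hepatocyte 2-like cells Noc2l, a large subunit factor, was the third highest with 0.261, 0.345 and 0.695 CP10K in wild-type mice and 0.708, 0.873 and 0.629 CP10K in SIRT7-/- mice, and the lowest by fold change was Wdr12, which acts with Pes1 and Bop1, at 0.235, 0.5598 and 0.279 CP10K in wild-type mice and 0.458, 0 and 0.401 CP10K in SIRT7-/- mice. Both overlapped between the genotypes, and the count of 0 for Wdr12 in SIRT7-/- mouse 2 allows up to 0.467 CP10K.

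T-like cells had 0.449, 0.475 and 0.278 CP10K in wild-type mice and 0.531, 0.692 and 1.51 CP10K in SIRT7-/- mice of Ebna1bp2, 0.804, 0.7 and 1.03 CP10K in wild-type mice and 1.32, 1.096 and 1.82 CP10K in SIRT7-/- mice of Nhp2 and, at the low end, 0.287, 0.248 and 0.395 CP10K in wild-type mice and 0.2802, 0.317 and 0.276 CP10K in SIRT7-/- mice of Gar1. Nhp2 and Gar1 are both core proteins of the H/ACA particle. Ebna1bp2 (log2 fold change 0.99, SE 0.38, limma adjusted p = 0.582) and Nhp2 (0.69, SE 0.29, adjusted p = 0.651) were higher in every SIRT7-/- mouse, while Gar1 overlapped. Gnl3 with 0.271, 0.383 and 0.321 CP10K in wild-type mice and 0.415, 0.391 and 0.174 CP10K in SIRT7-/- mice and Nolc1 with 0.232, 0.406 and 0.384 CP10K in wild-type mice and 0.3802, 0.324 and 0.259 CP10K in SIRT7-/- mice also overlapped.

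Dendritic-like cells had 1.23, 0.835 and 0.939 CP10K in wild-type mice and 1.28, 1.302 and 1.42 CP10K in SIRT7-/- mice of Nhp2, without overlap, and 0.271, 0.286 and 0.392 CP10K in wild-type mice and 0.481, 0.445 and 0.289 CP10K in SIRT7-/- mice of Mrto4, a large subunit factor, with overlap. Their lowest fold changes were those of Imp3 (0.899, 1.08 and 1.01 CP10K in wild-type mice and 0.93, 0.716 and 0.705 CP10K in SIRT7-/- mice), Ebna1bp2 (0.679, 0.516 and 0.443 CP10K in wild-type mice and 0.538, 0.5301 and 0.251 CP10K in SIRT7-/- mice) and Noc2l (0.779, 0.536 and 0.361 CP10K in wild-type mice and 0.3703, 0.467 and 0.4803 CP10K in SIRT7-/- mice). The genotypes overlapped in all 3 of these. Macrophage-like cells had 0.944, 1.23 and 0.569 CP10K in wild-type mice and 0.562, 0.583 and 0.595 CP10K in SIRT7-/- mice of Nhp2, 0.333, 0.718 and 0.345 CP10K in wild-type mice and 0.257, 0.332 and 0.3199 CP10K in SIRT7-/- mice of Nop56 and 0.214, 0.6199 and 0.705 CP10K in wild-type mice and 0.331, 0.468 and 0.269 CP10K in SIRT7-/- mice of Pes1 as their lowest. Nop56 was below every wild-type mouse in each SIRT7-/- mouse, with hardly any gap, and the others overlapped.

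In the 3 classes with fewer mice, some of the largest differences overlapped between the genotypes and some did not, and none was called. Plasma B-like cells had 0.0956 and 0.336 CP10K in wild-type mice 2 and 3 and 0.4699 and 0.333 CP10K in SIRT7-/- mice 1 and 2 of Rrp1 at the high end and 2.06 and 1.42 CP10K in wild-type mice 2 and 3 and 1.897 and 2.15 CP10K in SIRT7-/- mice 1 and 2 of Nop10 and 0.191 and 0.446 CP10K in wild-type mice 2 and 3 and 0.441 and 0.578 CP10K in SIRT7-/- mice 1 and 2 of Imp3 at the low end, where even the lowest log2 fold change was 0.23. All 3 overlapped. Endothelial-like cells had 0.502, 0.373 and 0.539 CP10K in wild-type mice and 0.157 and 0.223 CP10K in SIRT7-/- mice 1 and 2 of Nhp2, with both SIRT7-/- mice lower (log2 fold change -1.12, SE 0.61, limma adjusted p = 0.725). They had 0.379, 0.154 and 0.642 CP10K in wild-type mice and 0.2503 and 0.1003 CP10K in SIRT7-/- mice 1 and 2 of Nip7, 0.243, 0.315 and 0.732 CP10K in wild-type mice and 0.319 and 0.206 CP10K in SIRT7-/- mice 1 and 2 of Nolc1 and 0.495, 0.174 and 0.422 CP10K in wild-type mice and 0.465 and 0.582 CP10K in SIRT7-/- mice 1 and 2 of Rrs1, all with overlap. In B-like cells Gnl3 (0 and 0.329 CP10K in wild-type mice 1 and 3 and 0.421 and 0.875 CP10K in SIRT7-/- mice 1 and 2) and Wdr12 (0.242 and 0.0746 CP10K in wild-type mice 1 and 3 and 0.524 and 0.896 CP10K in SIRT7-/- mice 1 and 2) were higher in both SIRT7-/- mice, and Mrto4 (0.347 and 0.732 CP10K in wild-type mice 1 and 3 and 0.292 and 0 CP10K in SIRT7-/- mice 1 and 2) and Nip7 (0.726 and 0.625 CP10K in wild-type mice 1 and 3 and 0.291 and 0.213 CP10K in SIRT7-/- mice 1 and 2) were lower. Rrs1 (0.297 and 1.07 CP10K in wild-type mice 1 and 3 and 0.696 and 0 CP10K in SIRT7-/- mice 1 and 2) and Imp3 (1.29 and 0 CP10K in wild-type mice 1 and 3 and 1.21 and 0.733 CP10K in SIRT7-/- mice 1 and 2) overlapped. The limma adjusted p of each of these 6 was 0.916.

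The wider set of ribosome biogenesis factors, 135 genes outside the 40, had 0 genes called in each class, of 100 to 131 tested. Their median relative to all genes was 0.23 in both endothelial-like and hepatocyte 1-like cells, 0.13 in macrophage-like, 0.11 in hepatocyte 2-like, 0.09 in both T-like and B-like, 0.065 in plasma B-like and 0.02 in dendritic-like cells. In each pair that follows, the first value is the wild-type mean and the second the SIRT7-/- mean. The genes named are the extremes among those averaging 0.3 CP10K or more. In hepatocyte 1-like cells the largest differences were those of Sbds, which releases EIF6 from new large subunits (0.196 ± 0.175 and 0.652 ± 0.117 CP10K, SD, n = 3 each, limma adjusted p = 0.264) and Brix1 (0.276 and 0.504 CP10K) at the high end, and of Cebpz (0.411 and 0.348 CP10K) and Dcaf13 (0.393 and 0.257 CP10K) at the low end. Hepatocyte 2-like cells had Dhx33 (0.154 and 0.626 CP10K) and Wdr18 (0.221 and 0.723 CP10K) as highest, and Eif6 (0.734 and 0.375 CP10K) and Ddx18 (0.364 and 0.238 CP10K) as lowest. Dhx33 and Wdr18 were higher without overlap, as were 17 of 130 genes of the set and 12.7% of all genes. In macrophage-like cells these were Fcf1 (0.204 and 0.475 CP10K) and Nsa2 (1.46 and 2.15 CP10K), and Ddx49 (0.498 and 0.211 CP10K) and Ddx56 (0.484 and 0.259 CP10K). Dendritic-like cells had Exosc8 (0.349 and 0.650 CP10K) and Taf1d (0.413 and 0.627 CP10K), and Sbds (0.484 and 0.312 CP10K) and Rpf2 (0.409 and 0.310 CP10K). T-like cells had Fcf1 (0.332 and 0.586 CP10K) and Rbm28 (0.410 and 0.640 CP10K), and Rcl1 (0.571 and 0.266 CP10K) and Baz2a (0.612 and 0.347 CP10K). Sbds thus lay on opposite sides in hepatocyte 1-like and dendritic-like cells, a difference that was not tested. In endothelial-like cells Nifk (0.601 and 0.199 CP10K) and Utp4 (0.446 and 0.107 CP10K) were lower without overlap, as were 7 of 130 genes of the set and 12.7% of all genes. Fcf1 (0.195 and 0.490 CP10K) and Krr1 (0.243 and 0.523 CP10K) were at the high end there. In B-like cells Gtpbp4 (0.966 and 0.189 CP10K) and Nom1 (0.638 and 0.131 CP10K) were at the low end and Rcl1 (0.105 and 0.590 CP10K) and Ppan (0.127 and 0.492 CP10K) at the high end, and in plasma B-like cells Ddx24 (0.586 and 0.589 CP10K) and Fcf1 (0.335 and 0.311 CP10K) at the low and Snu13 (0.610 and 1.02 CP10K) and Cebpz (0.265 and 0.395 CP10K) at the high end.

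Subunits of the other nuclear RNA polymerases gave no calls either. The 7 subunits particular to RNA polymerase II had a median relative to all genes of 0.34 in T-like, 0.31 in macrophage-like, 0.25 in hepatocyte 1-like, 0.105 in plasma B-like, 0.09 in dendritic-like, 0.07 in endothelial-like, -0.10 in hepatocyte 2-like and -0.37 in B-like cells. In T-like cells all 7 had fold changes above 0, as had 44.2% of all genes. The relative medians of the 10 particular to RNA polymerase III ran from -0.88 in B-like to 0.28 in dendritic-like cells, and those of the 5 shared by all 3 polymerases from -0.50 in B-like to 0.56 in plasma B-like cells. Mybbp1a, a nucleolar protein that binds RNA polymerase I, had 0.1499, 0.199 and 0.469 CP10K in wild-type mice and 0.234, 0.355 and 0.122 CP10K in SIRT7-/- mice in hepatocyte 1-like cells and 0.618, 0.641 and 0.397 CP10K in wild-type mice and 0.314, 0.399 and 0.274 CP10K in SIRT7-/- mice in macrophage-like cells. It overlapped in both. Myc, whose protein drives ribosome production in many tissues, had 0.254, 0.142 and 0.0581 CP10K in wild-type mice and 0.2398, 0.301 and 0.491 CP10K in SIRT7-/- mice in T-like and 0.124, 0.302 and 0.329 CP10K in wild-type mice and 0.1004, 0.205 and 0.289 CP10K in SIRT7-/- mice in hepatocyte 2-like cells, also with overlap, and its mean was under the limit for testing in hepatocyte 1-like cells.

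Cells in the cycle were also compared with the other cells of the same mice. A cell was taken as cycling with 2 or more UMIs of a list of 20 S and G2/M genes, none of them a member, and as other with 0, and limma was fitted with the mouse as a term. Macrophage-like and dendritic-like cells had enough cells of both kinds in wild-type mouse 3 and SIRT7-/- mice 1, 2 and 3, and T-like cells in the first 3 of these, so that the comparison rests on 1 wild-type mouse. Cycling cells had more UMIs, with medians of 2546 to 10374 against 1248 to 3730 in dendritic-like cells, as the rule for cycling favors deep cells. In dendritic-like cells 5 of 40 members rose (5.79% of 9740 genes rose) and 0 fell (6.26%). This cluster was led by Prss34 and Mcpt8 and had 3 of its 8 markers among its 10 leading genes. Whether its cycling and other cells were of the same cell types was not tested. In macrophage-like cells 2 of 39 rose (4.37% of 9968) and 0 fell (2.29%), and in T-like cells 1 of 39 rose (4.82% of 10004) and 1 fell (5.03%). In macrophage-like and T-like cells the members were thus called about as often as all genes, or less often.

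Npm1 rose in all 3 classes. In cycling and other dendritic-like cells its level was 7.03, 12.4, 8.74 and 10.7 CP10K in the cycling and 5.42, 5.86, 5.36 and 4.36 CP10K in the other cells. Cycling cells were higher in 4 of 4 mice, with a log2 fold change of 0.86 (SE 0.13, limma adjusted p = 0.00016). Macrophage-like cells had 4.98, 6.06, 8.07 and 5.02 CP10K in the cycling and 3.71, 3.84, 4.96 and 3.99 CP10K in the other cells. This was higher in 4 of 4 mice as well, by 0.52 on the log2 scale (SE 0.12, adjusted p = 0.00617), and the call was lost without SIRT7-/- mouse 2 (adjusted p = 0.07). In T-like cells it was 8.196, 6.66 and 10.2 CP10K in the cycling and 5.08, 6.99 and 6.21 CP10K in the other cells, higher in 2 of 3 mice, with a log2 fold change of 0.44 (SE 0.14, limma adjusted p = 0.0263). That call ended with a stricter filter of 0.2 CP10K (adjusted p = 0.113), in cells with at least 2000 UMIs (0.16, adjusted p = 0.702), without wild-type mouse 3 (0.32, adjusted p = 0.249) and without SIRT7-/- mouse 2 (0.31, adjusted p = 0.545).

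Ncl rose in cycling dendritic-like cells, from 1.48, 1.36, 1.47 and 0.922 CP10K in the other cells to 2.86, 2.67, 2.88 and 3.11 CP10K in the cycling cells, by 1.13 on the log2 scale (SE 0.19, limma adjusted p = 0.000385). The 4 mice were alike in their cycling cells, and SIRT7-/- mouse 3 had the lowest level in its other cells. In macrophage-like cells, with 1.63, 1.82, 2.39 and 2.405 CP10K in the cycling and 1.54, 1.31, 1.53 and 1.35 CP10K in the other cells, it was higher in 4 of 4 mice but missed the threshold (0.49, SE 0.17, limma adjusted p = 0.0993), and in T-like cells, with 3.08, 2.73 and 4.42 CP10K in the cycling and 2.83, 2.002 and 2.37 CP10K in the other cells, it was higher in 3 of 3 (0.48, adjusted p = 0.12). The box C/D core protein Nop56 rose in macrophage-like cells, 0.201, 0.243, 0.253 and 0.213 CP10K in the other cells to 0.792, 0.578, 0.676 and 0.613 CP10K in the cycling cells, by 1.36 on the log2 scale (SE 0.29, limma adjusted p = 0.00458). This was the largest of the members' changes that held without any 1 of the mice. It also rose in dendritic-like cells, 0.288, 0.297, 0.457 and 0.735 CP10K in the other cells to 0.694, 0.837, 0.765 and 1.01 CP10K in the cycling cells, by 0.90 (SE 0.28, limma adjusted p = 0.0442), where the call was lost without wild-type mouse 3 or SIRT7-/- mouse 1 or 2, and when a cycling cell needed at least 3 UMIs of the list (0.83, limma adjusted p = 0.0805). Its partner Nop58 rose in dendritic-like cells, 0.4401, 0.394, 0.659 and 0.298 CP10K in the other cells to 0.788, 0.842, 1.14 and 1.13 CP10K in the cycling cells, by 1.07 (SE 0.28, limma adjusted p = 0.0142). Nop10 rose there too, 3.35, 3.75, 2.99 and 3.73 CP10K in the other cells to 4.25, 6.31, 4.54 and 4.704 CP10K in the cycling cells, by 0.50 (SE 0.13, limma adjusted p = 0.0183), and its call also depended on those 3 mice. Fbl, the third protein of the box C/D particle in the list, was higher in 2 of 4 mice in each of the macrophage-like and dendritic-like classes (log2 fold changes 0.21 and 0.22).

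Ddx21, an RNA helicase of the nucleolus, fell in cycling T-like cells. Its level was 0, 0.481 and 0.638 CP10K in the cycling and 0.946, 0.687 and 0.703 CP10K in the other cells, lower in 3 of 3 mice. The log2 fold change of -1.64 (SE 0.43, limma adjusted p = 0.0034) leans on wild-type mouse 3, whose 17 cycling cells had 0 UMIs of Ddx21, which allows up to 0.495 CP10K. Without this mouse the change was -0.30 (adjusted p = 0.697), in cells with at least 2000 UMIs it was -1.69 (adjusted p = 0.201), and with the filter of 0.2 CP10K it was -1.64 (adjusted p = 0.27). The polymerase genes did not pass. Polr1a, Polr1b and Ubtf had log2 fold changes of -0.09, 0.07 and 0.23 in dendritic-like and of 0.37, 0.17 and 0.13 in macrophage-like cells, and Rrn3 was higher in 4 of 4 mice in dendritic-like cells (0.87, SE 0.40, limma adjusted p = 0.184) but in 1 of 4 in macrophage-like cells. In T-like cells the log2 fold change was above 0 for 1 of 6 of these genes, against 41.3% of all genes. There Polr1c had -1.45 (SE 0.58, limma adjusted p = 0.0985, 0 UMIs in the cycling cells of wild-type mouse 3), Ubtf -0.76 (limma adjusted p = 0.176), Polr1b -0.37 and Polr1a -0.22. The wider set gave counts under the share of all genes printed beside them. Emg1 rose in macrophage-like cells (1 of 134 tested, where 4.37% of all genes rose), and Exosc8, Lyar, Ruvbl1, Ruvbl2, Snu13 and Znhit3 rose in dendritic-like cells (6 of 130, 5.79% of all genes). In T-like cells Exosc8, Exosc9, Lyar, Nol7 and Tcof1 rose and Ddx24, Ddx54 and Nmd3 fell (5 and 3 of 131, against 4.82% and 5.03% of all genes). Snu13 is the fourth core protein of the box C/D particle, Ruvbl1, Ruvbl2 and Znhit3 help to assemble it, and Exosc8 and Exosc9 belong to the RNA exosome. Snu13 rose by 0.63 on the log2 scale (limma adjusted p = 0.0342) and Ruvbl2 by 1.66 (adjusted p = 0.013). Myc had a log2 fold change of 0.91 in dendritic-like cells, higher in 4 of 4 mice (limma adjusted p = 0.0878).

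**Figure D5:**
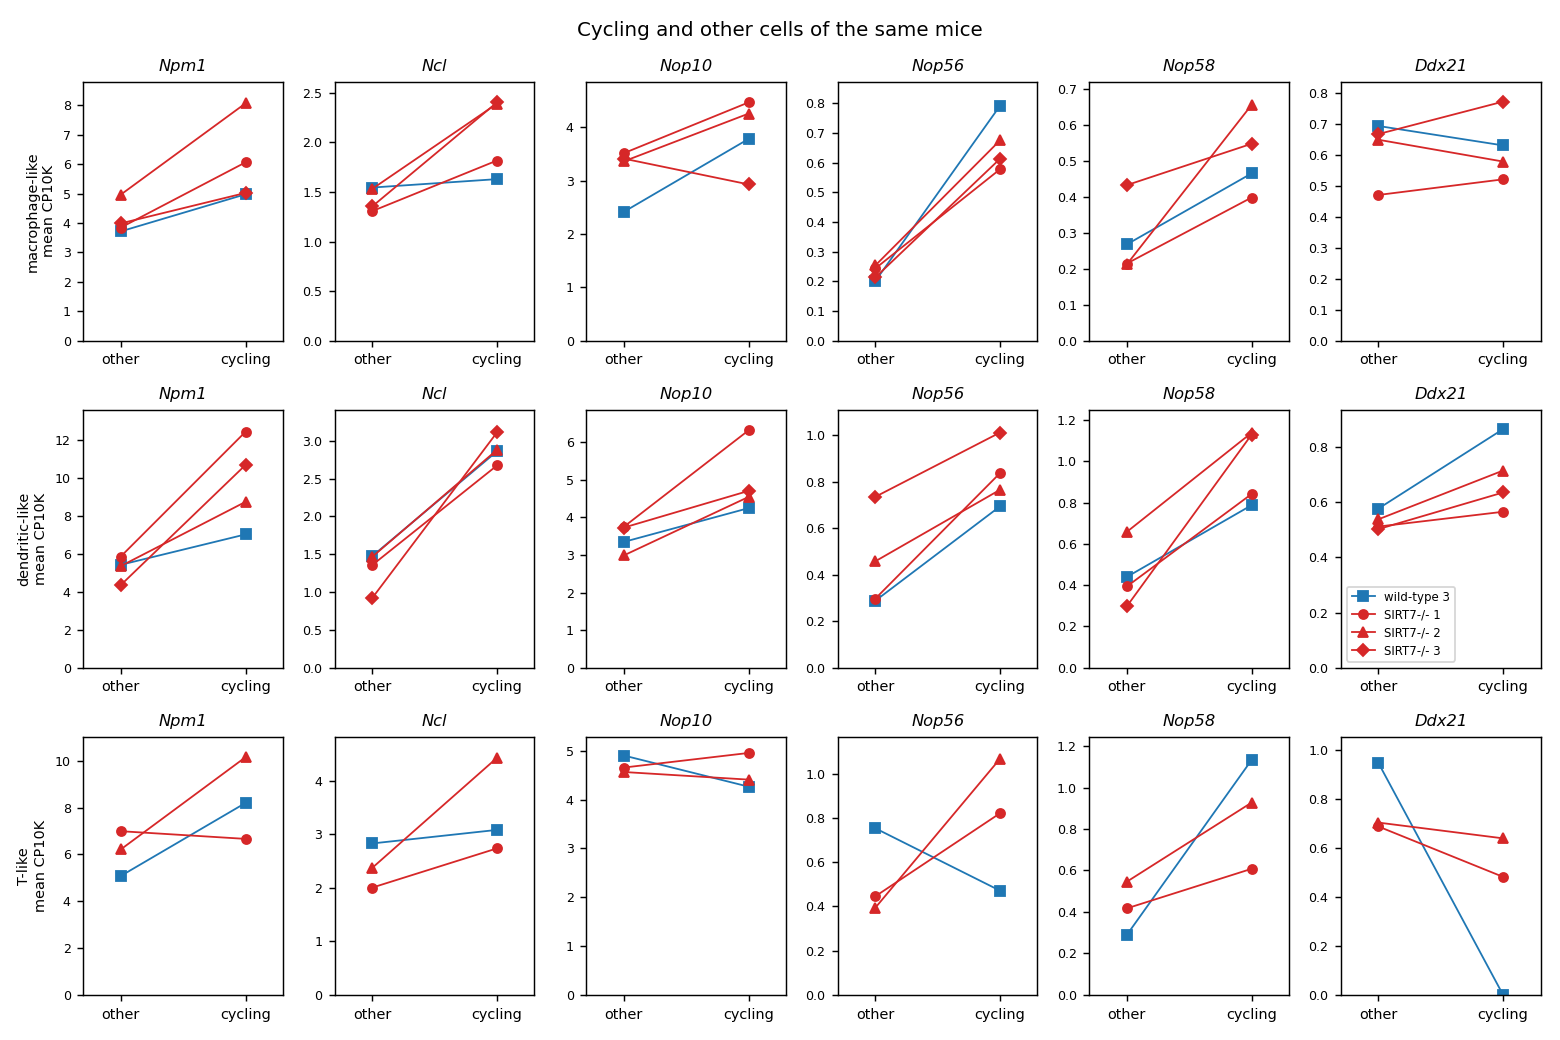
Levels (mean CP10K, each axis from 0) of Npm1, Ncl, Nop10, Nop56, Nop58 and Ddx21 in other and in cycling cells of the same mouse, joined by a line, in macrophage-like (top), dendritic-like (middle) and T-like cells (bottom). In dendritic-like cells all 4 lines of Npm1, Ncl, Nop10, Nop56 and Nop58 go up, while the drop of Ddx21 in T-like cells is steepest in wild-type mouse 3, whose cycling cells had none.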

How the data were processed

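Single-cell RNA-seq libraries from 3 wild-type and 3 SIRT7-/- livers were analysed from the deposited table, in which the authors gave natural log values of counts per 10000 plus 1 for each cell, after Cell Ranger 6.0.0 counting on mm10 per the labels. All 12961041 values above 0 gave whole UMIs within 0.02 of a whole number when worked back, so that depths are known. Cells had at least 500 genes and up to 5.01% mitochondrial UMIs. From these values 22 cells with over 1% hemoglobin UMIs were left out, and the rest were clustered with scanpy 1.11.5 (1000 variable genes, 50 principal components, 3 neighbors per mouse, Leiden resolution 0.35) and named from markers. The S100a8/S100a9-like and stellate-like classes were not compared here.

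Mean CP10K per mouse and class were compared with limma 3.58.1 (trend and robust, on log2 of the mean plus 0.05, genes averaging 0.05 CP10K or more, mice with at least 20 cells). Tests were two-sided, and p-values were adjusted by Benjamini-Hochberg among the genes tested in a class. On this scale fold changes of low genes are understated. The code was tested on simulated data. The mouse was the replicate, with 3 against 3 at most. For the members, per-mouse values are given in each class for Npm1, Ncl, Polr1a, Polr1b, Ubtf and Rrn3 and for the 3 highest and 3 lowest log2 fold changes among members with a mean of at least 0.3 CP10K. Imp3 in hepatocyte 1-like cells and Polr1c in both hepatocyte classes and in cycling T-like cells were added after their values were seen. The members and lists were chosen with earlier results of these data known. Alternatives were another offset, no or a stricter filter, voom, means of logged values, a replicate block, each mouse left out, for cycling cells 3 UMIs of the list or 2000 UMIs in all, and cells left out by hemoglobin, doublet mark, size or cycling, the last 2 chosen after seeing the data. Intervals and floors for counts of 0 (3 UMIs) cover counting error only.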

Additional observations from a re-analysis of the deposited data

Results flagged for a closer look

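In dendritic-like cells the difference of Ncl between cycling and other cells was 1.70 on the log2 scale in SIRT7-/- mouse 3, far from the other 3 mice, whose differences lay close together. The gap to the nearest mouse was 0.974 of the whole range, above Dixon's critical value for 4 samples. It was 1 of 7 sets of 4 mice that were looked at, and chance marks about 1 in 20 such sets. This mouse had 15 cycling and 26 other cells, with 50 and 9 UMIs of Ncl. Without it the log2 fold change was 0.95 (limma adjusted p = 0.000219).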

How the results depend on the processing

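No member passed in the genotype comparison under any alternative, except that voom called Npm1 in hepatocyte 1-like cells (1 member, among 514 genes called in place of 42) and that 5 members (Gar1, Polr1d, Rrp1, Nip7 and Bop1) were called in plasma B-like cells when wild-type mouse 3 was left out (range 0 to 5 without 1 mouse, where 951 genes were called and wild-type mouse 2 alone stood for its genotype and was assumed to vary like the others). The relative median of the members in hepatocyte 1-like cells was 0.21 with an offset of 0.2 CP10K, 0.28 without a filter, 0.44 among genes of at least 0.2 CP10K, 0.024 for means of logged values and 0.21 to 0.42 without 1 mouse. In dendritic-like cells it was 0.026 with that filter, -0.042 with voom, 0.01 for logged values and 0.025 to 0.146 without 1 mouse. In plasma B-like cells it was 0.09 with the offset, 0.15 with the filter, 0.024 for logged values and 0.136 to 0.239 without 1 mouse. In endothelial-like cells it was -0.075 with voom, 0.008 for logged values and -0.049 to 0.022 without 1 mouse, and in B-like cells -0.265 to 0.151 without 1 mouse. The causes were not tested.

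Among single members, voom turned the sign of Dkc1 in hepatocyte 1-like cells (0.065), Rrn3 and Wdr12 in hepatocyte 2-like cells (0.002 and 0.11), Polr1a in macrophage-like cells (-0.38), Gar1, Gnl3 and Nolc1 in T-like cells (0.001, 0.32 and 0.13), Npm1 in B-like cells (-0.035) and Nolc1 and Rrn3 in endothelial-like cells (0.025 and -0.008). Means of logged values turned Gar1 in T-like cells (0.009) and Npm1 in B-like cells (-0.032). Mrto4 in dendritic-like cells turned without large cells (-0.058) and without cycling cells (-0.15). With 1 mouse left out in turn, the log2 fold change took both signs for Rrs1 in hepatocyte 1-like cells (-0.21 to 0.27), Wdr12 in hepatocyte 2-like cells (-1.36 to 0.31), Polr1a in macrophage-like cells (-0.22 to 0.44), Gar1 in T-like cells (-0.19 to 0.10), Gnl3 in T-like cells (-0.24 to 0.28), Nolc1 in T-like cells (-0.28 to 0.073), Imp3 in B-like cells (-0.43 to 4.31), Npm1 in B-like cells (-0.33 to 0.39), Rrs1 in B-like cells (-3.64 to 0.26), Nop10 in plasma B-like cells (-0.027 to 0.49) and Rrn3 in endothelial-like cells (-0.44 to 1.46).

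Without 1 mouse, 1 to 3 members were called in cycling macrophage-like cells, 3 to 5 in dendritic-like and 1 to 2 in T-like cells. In T-like cells 0 members were called among genes of at least 0.2 CP10K (622 genes called) and in cells with at least 2000 UMIs (347 genes called). The mice of equal number did not deviate together (correlations of -0.34 to 0.25 over the classes), so the numbers were not taken as pairs. With a replicate block 0 members were called, and the relative median stayed at 0.34 in hepatocyte 1-like cells and was 0.02 in endothelial-like cells. The block could not be fitted for B-like and plasma B-like cells. Leaving out large cells gave no value for B-like cells, and leaving out cycling cells none for plasma B-like cells. The limit set by depth is the same for every gene of a library, and a count of 0 allows up to 0.818 CP10K in the thinnest B-like library.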

Other observations

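Gene models over ribosomal RNA repeats, which were not among the 40 genes and whose reads can come from the precursor RNA or from repeats, were higher in SIRT7-/- mice in several classes without passing the threshold. Gm26917 in hepatocyte 2-like cells had 10.0, 7.36 and 5.25 CP10K in wild-type mice, against 19.1, 34.8 and 16.9 CP10K without SIRT7. The mice did not overlap, with a log2 fold change of 1.61 (SE 0.39, limma adjusted p = 0.0999). Gm42418 had 1.65 and 2.42 CP10K in wild-type mice 2 and 3 and 6.03 and 6.42 CP10K in SIRT7-/- mice 1 and 2 in plasma B-like cells (limma adjusted p = 0.0786). In endothelial-like cells it had 6.14, 7.23 and 7.79 CP10K in wild-type mice, against 16.9 and 16.0 CP10K without SIRT7 (limma adjusted p = 0.0776). SIRT7-/- mouse 3 did not enter either class. In hepatocyte 1-like cells Gm42418 of this mouse was 0.865 CP10K, against 2.40 to 3.76 CP10K in wild-type mice. It was 1.20 against 2.40 to 3.97 CP10K in dendritic-like and 1.81 against 2.455 to 6.46 CP10K in T-like cells. SIRT7-/- mice 1 and 2 were above every wild-type mouse in these classes. Gm26917 had a log2 fold change of -0.58 in hepatocyte 1-like cells. In macrophage-like cells Gm42418 overlapped between the genotypes, with 8.56 to 19.2 and 8.54 to 23.8 CP10K, and in cycling macrophage-like cells it fell by 0.59 on the log2 scale (SE 0.12, limma adjusted p = 0.00281). In cycling T-like cells it fell by 0.705 (SE 0.14, limma adjusted p = 8.68e-06).

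Target genes of p53 that respond to nucleolar stress, a list of 10, had 0 genes called between the genotypes in each class. At an unadjusted p under 0.05, 2 of 8 were higher in SIRT7-/- macrophage-like cells (3.88% of all genes) and 1 of 7 in dendritic-like cells (2.0%), and in hepatocyte 2-like cells 1 of 8 was higher (7.55%) and 1 lower (2.77%). In the other 5 classes the number was 0. Their median relative to all genes was 1.23 in B-like, then 0.64 and 0.51 in macrophage-like and dendritic-like, 0.37 in hepatocyte 2-like, 0.35 in endothelial-like, 0.14 in hepatocyte 1-like, 0.008 in plasma B-like and -0.01 in T-like cells, over 5 to 8 genes tested.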
